A study of Mus musculus with 93 samples.

Results

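Genes of retinoic acid synthesis and retinoid handling were followed in granulosa cells and oocytes of Esr2 knockout and wild type mice. The set is 9 mouse genes named by symbol: Stra6, Rdh10, Dhrs3, Aldh1a1, Aldh1a2, Aldh1a7, Crabp2, Cyp26b1 and Rara. It was put together because Aldh1a1 was higher and Dhrs3 lower in knockout granulosa cells, so the knockout to wild type values of granulosa cells are a description, with no test. Of the 9 symbols, 8 had a row among the 24047 genes of the count tables. All 8 were in the 3 granulosa tables and 6 were in the 3 oocyte tables. Cyp26b1, which encodes an enzyme that breaks retinoic acid down, had no row in any of the 6 tables and was not analysed here. Aldh1a7 had a row in the granulosa tables alone, and Aldh1a1 in those and in the 6 month oocyte table.

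The samples were ovarian granulosa cells, the somatic cells around the oocyte, and oocytes, both sequenced by Smart-seq2, which copies whole transcripts from very little RNA. The mice were Esr2 knockouts, which lack estrogen receptor beta, or wild type, at 4 weeks, 7 weeks or 6 months of age. There were 7 knockout and 7 wild type granulosa libraries of 4 weeks, 5 knockout and 5 wild type of 7 weeks, and 6 knockout and 12 wild type of 6 months; for oocytes these were 7 knockout and 12 wild type, 12 knockout and 5 wild type, and 4 knockout and 11 wild type. The labels give tissue, genotype and age, and name no strain, hormone treatment, knockout allele, animal or number of cells per library, so the p-values measure the spread between libraries only, which may be technical.

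Retinol enters cells partly through the membrane receptor STRA6 and is oxidised to retinaldehyde by RDH10, while DHRS3 reduces retinaldehyde back to retinol. Retinaldehyde dehydrogenases of the ALDH1A family then make retinoic acid, CRABP2 carries it to nuclear receptors such as RARA, and CYP26 enzymes degrade it. In the fetal mouse ovary retinoic acid is known for its part in the entry of germ cells into meiosis, and granulosa cells of mature ovaries are known to be able to make it.

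The sequences of Aldh1a1 and Aldh1a7 are shown because the first carries the largest knockout difference of the set and the other is its close copy, so that reads could be divided between them. In GENCODE M21 on GRCm38, Aldh1a1 lies on the plus strand at chr19:20492715-20643465 and Aldh1a7 on the minus strand at chr19:20692953-20727562, with 49487 bases between them. Both coding sequences have 1506 bases, of which 126 positions differ, an identity of 91.6%. The first 150 coding bases, from GENCODE M21 transcripts, are given 5′ to 3′, with the 10 positions that differ in capitals.
Aldh1a1 coding start: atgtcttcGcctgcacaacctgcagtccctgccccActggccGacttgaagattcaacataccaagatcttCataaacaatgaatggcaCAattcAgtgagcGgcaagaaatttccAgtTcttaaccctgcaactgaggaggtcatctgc
Aldh1a7 coding start: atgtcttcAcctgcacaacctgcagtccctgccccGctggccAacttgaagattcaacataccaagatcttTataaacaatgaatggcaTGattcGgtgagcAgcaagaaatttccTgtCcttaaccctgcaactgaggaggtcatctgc
Of all 50-base stretches of the Aldh1a7 transcript, 7.49% are found unchanged in the Aldh1a1 transcript, and of all 100-base stretches 0.0508%. How the authors' counting treated reads that match both is not given in the sources used here, so low Aldh1a7 values beside high Aldh1a1 values are uncertain.

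The 250 bases before the transcription start of both genes, from RefSeq on GRCm38.p6, also match closely. The Aldh1a1 window is chr19:20601718-20601967 on the plus strand, at a start inside the gene's annotated extent, and the Aldh1a7 window is chr19:20727557-20727806 on the minus strand. The longest run of bases common to both is in capitals.
Aldh1a1 promoter: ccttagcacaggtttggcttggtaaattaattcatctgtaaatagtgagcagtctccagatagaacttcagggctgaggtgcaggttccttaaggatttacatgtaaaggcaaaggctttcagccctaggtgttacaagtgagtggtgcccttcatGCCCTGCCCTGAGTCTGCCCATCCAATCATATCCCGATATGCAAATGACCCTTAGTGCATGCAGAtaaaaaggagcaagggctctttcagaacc
Aldh1a7 promoter: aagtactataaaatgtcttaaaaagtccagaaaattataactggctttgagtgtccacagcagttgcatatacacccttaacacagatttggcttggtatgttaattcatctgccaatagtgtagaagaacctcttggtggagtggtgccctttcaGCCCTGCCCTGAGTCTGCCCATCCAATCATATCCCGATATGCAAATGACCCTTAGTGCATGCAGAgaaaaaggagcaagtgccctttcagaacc
The common run has 65 bases and lies from 94 to 29 bases before the start in both windows. It occurs in 2 of the 32851 promoter windows of the table, and 94 of the last 100 bases are identical. For 7 of the 9 genes 1 window each was searched on both strands, since Rdh10 and Crabp2 had no entry. It was the window nearest the start of the first listed transcript. Aldh1a1 has 2 windows, Dhrs3 3, Stra6 4 and Rara 4, and their other windows were not searched. The searched windows of Dhrs3, Stra6 and Rara, like that of Aldh1a1, lie inside the annotated extent of the gene. The estrogen response element GGTCANNNTGACC was in none of the 7, and in 0.0639% of all windows. The half-site AGGTCA was in none of the 7, and in 14% of all windows. The direct repeats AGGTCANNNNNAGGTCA and AGGTCANNAGGTCA, arrangements that retinoic acid receptors can bind, were in none of the 7 and each in 0.00913% of all windows. All 3 longer motifs overlap the half-site or its core. TATAAA was in the windows of Aldh1a7 and Cyp26b1, and in 12.4% of all windows. These are matches of letters in 250 bases and no measure of binding.

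Library totals were 702726 to 6469420 estimated counts in granulosa cells and 1814958 to 7751953 in oocytes. Esr2 itself had no count in any of the 18 knockout granulosa libraries, against 5.69 to 39.6 CPM, the count scaled to a library total of 1000000, in the 24 wild type ones. In oocytes it reached at most 0.598 CPM in 23 knockout libraries, against 39.3 to 112 CPM in 28 wild type libraries. The 8 granulosa markers summed to 1738 to 6146 CPM in granulosa libraries. Of these, 5 had a row in oocytes at 1 age or more, and they summed to 43.6 to 402 CPM in oocyte libraries. Fshr, Foxl2 and Amh had no row in oocytes. The 8 oocyte markers summed to at least 9127 CPM in every oocyte library. In bulk libraries such as these, fewer cells of a type and less RNA per cell cannot be told apart.

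Interconversion of retinol and retinaldehyde is shared by Rdh10 and Dhrs3. Dhrs3, the retinaldehyde reductase at chr4:144892827-144928209, had lower values in knockout granulosa cells at each age. At 4 weeks it had 13.2 to 46.8 CPM, median 32.0, in knockout granulosa libraries, against 55.9 to 155 CPM, median 114, in wild type ones. At 7 weeks the knockout libraries had 36.4, 14.8, 24.7, 41.1 and 17.1 CPM, against 79.7, 116, 111, 104 and 88.4 CPM in wild type libraries. The groups did not overlap at either age. At 6 months Dhrs3 had 28.9 to 51.1 CPM, median 37.0, in knockout libraries, against 50.3 to 106 CPM, median 82.7, in wild type libraries. Here the lowest wild type library lay just under the highest knockout library. As a description, the fitted log2 differences, knockout over wild type by edgeR, were -1.996 ± 0.32 (SE) at 4 weeks, -1.98 ± 0.31 at 7 weeks and -0.92 ± 0.19 at 6 months.

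Rdh10, the retinol dehydrogenase at chr1:16105774-16133734, was low in granulosa cells and its mean was also lower in knockout libraries at each age, with 8.80 ± 5.47, 13.3 ± 8.97 and 10.9 ± 5.35 CPM in knockout libraries at 4 weeks, 7 weeks and 6 months (SD, n = 7, 5 and 6). Wild type libraries had 15.3 ± 9.32, 14.2 ± 3.88 and 14.8 ± 6.74 CPM (n = 7, 5 and 12). The genotypes overlapped at every age, and the log2 differences were -0.80 ± 0.43, -0.28 ± 0.46 and -0.36 ± 0.30 (SE).

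**Figure D1:**
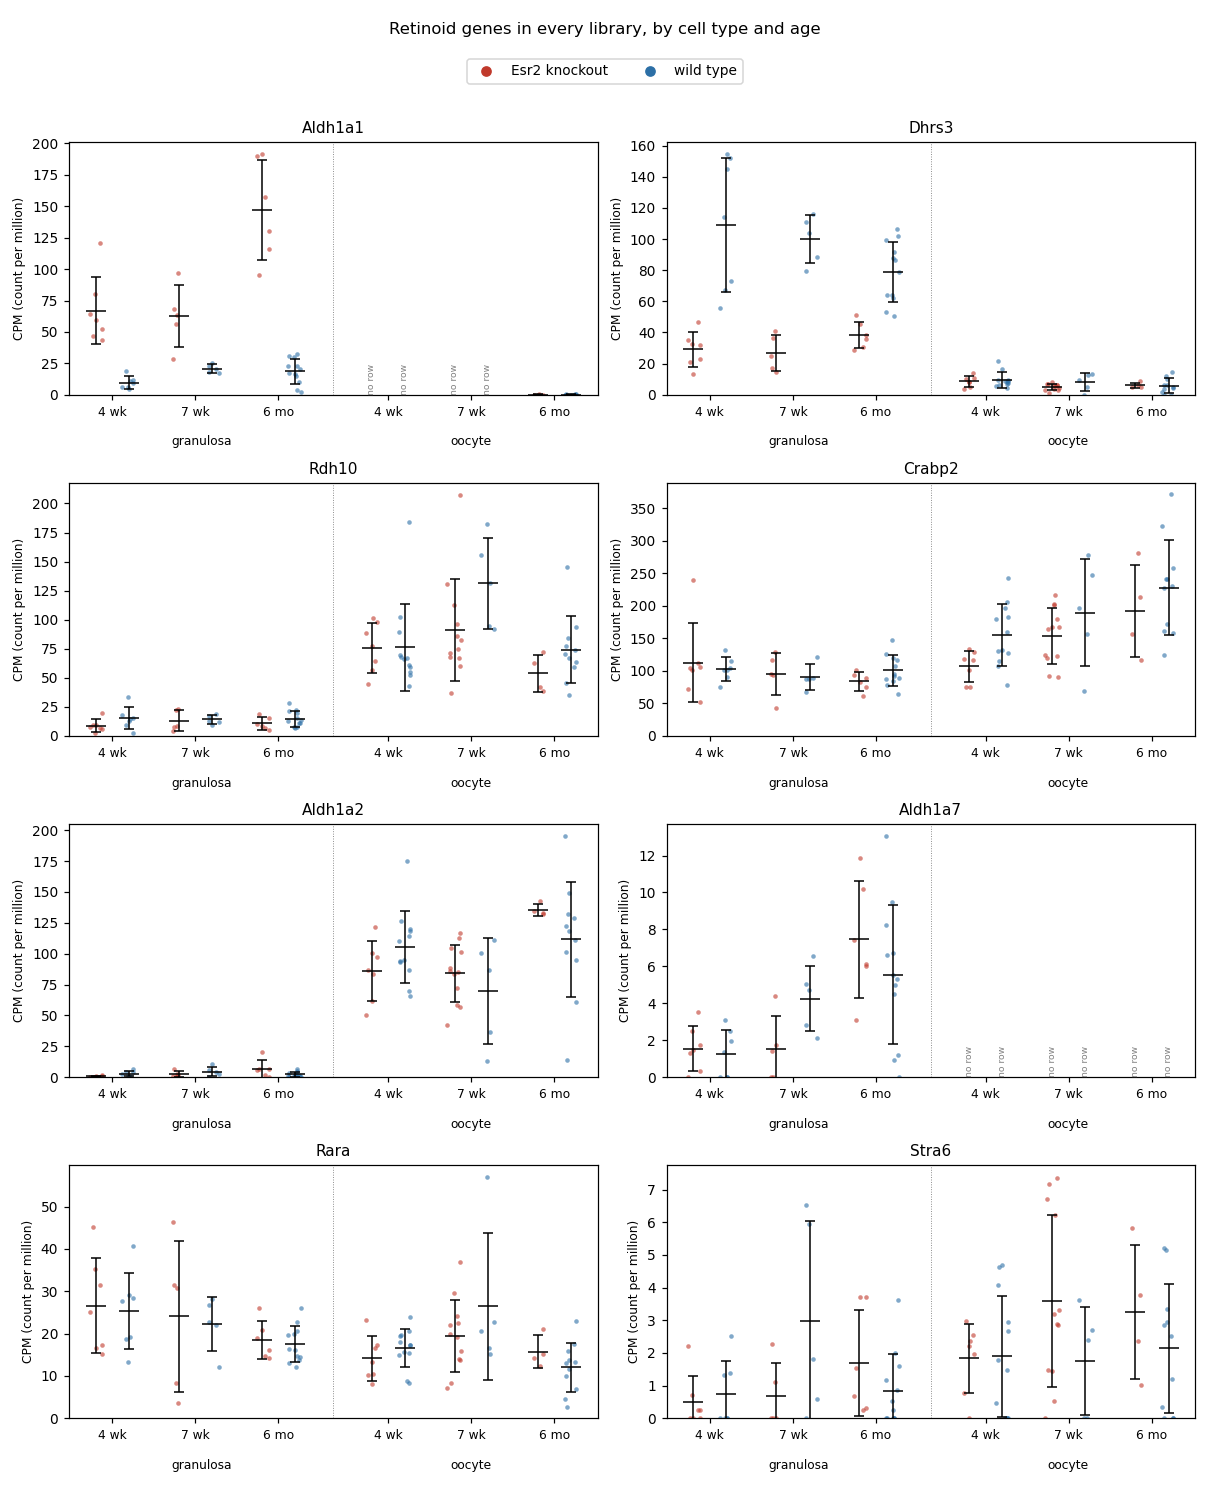
Level of each of the 8 retinoid genes with a row, in CPM, in every library (points) of each cell type and age, with the mean and 1 SD (bars), knockout in red and wild type in blue. Aldh1a1 was at 43.6 to 121 CPM in the 4 week knockout granulosa libraries and 4.61 to 19.1 CPM in the wild type ones, and Dhrs3 showed the opposite order, while Aldh1a2 and Rdh10 had their high values in oocytes.

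Among the retinaldehyde dehydrogenases, which carry out the step that makes retinoic acid, Aldh1a1 was the member with higher values in knockout granulosa cells at each age. At 4 weeks it had 59.7, 52.4, 64.6, 43.6, 47.1, 80.0 and 121 CPM in the knockout libraries, against 6.17, 11.2, 6.37, 9.12, 4.61, 19.1 and 11.4 CPM in the wild type libraries. At 7 weeks it had 56.0, 96.9, 28.5, 63.7 and 68.3 CPM in knockout libraries, against 22.8, 20.8, 18.1, 25.4 and 17.2 CPM in wild type libraries. At 6 months it had 131, 157, 192, 95.1, 190.4 and 116 CPM in knockout libraries, against 2.49 to 32.5 CPM, median 18.9, in 12 wild type libraries. No wild type library reached the lowest knockout library of its age, although at 7 weeks the gap was small, 28.5 CPM in the lowest knockout library against 25.4 CPM in the highest wild type library. The log2 differences were 2.72 ± 0.34 (SE) at 4 weeks, 1.51 ± 0.31 at 7 weeks and 3.13 ± 0.37 at 6 months. The difference of the 6 month from the 7 week value, in 1 model of all granulosa libraries, was 1.58 ± 0.55, and that of 6 months from 4 weeks was 0.38 ± 0.51.

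Aldh1a7, the neighbouring copy, averaged 1.55 ± 1.20, 1.51 ± 1.80 and 7.45 ± 3.17 CPM in knockout granulosa libraries at 4 weeks, 7 weeks and 6 months (SD, n = 7, 5 and 6). In wild type libraries it averaged 1.26 ± 1.29, 4.25 ± 1.78 and 5.55 ± 3.74 CPM (n = 7, 5 and 12). The genotypes overlapped at each age. It passed the filter on low counts at 6 months alone, where its log2 difference was 0.56 ± 0.51 (SE).

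Aldh1a2, at chr9:71215789-71296243, was near its detection limit in granulosa cells of 4 weeks, with 0 to 1.65 CPM in knockout libraries, against 0.461 to 6.40 CPM in wild type libraries. At 6 months the knockout libraries had 0, 1.83, 20.5, 6.65, 5.38 and 6.95 CPM, against 0.227 to 6.75 CPM, median 1.27, in wild type libraries. A single knockout library, number 3, stood above all others. The log2 difference at 6 months was 1.83 ± 0.61 (SE) with that library and 0.99 without it. The same library had the highest summed level of the theca and stroma markers in its group, 2092 CPM, with 1339 CPM in library 1 and 1158 CPM in library 6. Surface epithelium markers summed to 380.5 and 359.2 CPM in libraries 1 and 2, and to 1190, 1210, 746.8 and 1026 CPM in libraries 3 to 6. The part of either cell type in the Aldh1a2 values was not tested.

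Levels of the 4 Aldh1a genes were compared per kilobase of exon, as means over libraries, since the genes differ in length. Aldh1a1 was the most abundant of them in knockout granulosa cells, at 13.6 CPM per kb at 4 weeks, 12.7 at 7 weeks and 29.8 at 6 months. Aldh1a3, a further retinaldehyde dehydrogenase that is not a member of the set, had 0.993, 1.48 and 8.02 CPM per kb there. In wild type granulosa cells the order was the reverse at 4 weeks and 6 months, with 1.97 and 3.79 CPM per kb of Aldh1a1, beside 4.00 and 19.5 of Aldh1a3. At 7 weeks wild type cells had 4.23 CPM per kb of Aldh1a1 and 6.39 of Aldh1a3 over all annotated exons, but 10.2 and 8.56 over the length of the first listed transcript, so that order depends on the length used. In oocytes Aldh1a2 made up nearly all of the Aldh1a level, with 37.9, 37.1 and 59.9 CPM per kb in knockout oocytes and 46.7, 30.8 and 49.3 in wild type oocytes at the 3 ages.

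**Figure D2:**
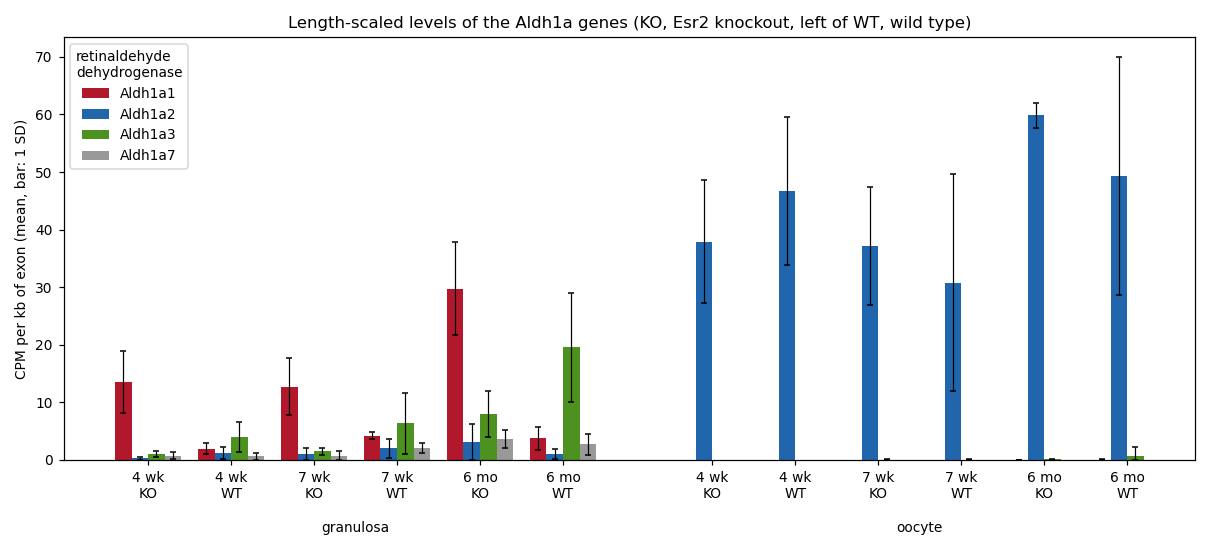
Mean level of Aldh1a1, Aldh1a2, Aldh1a3 and Aldh1a7 in CPM per kb of annotated exon in the 12 groups, bars 1 SD over libraries, knockout (KO) left of wild type (WT) at each age. In granulosa cells Aldh1a1 led in knockout groups, for example 29.8 CPM per kb at 6 months, and Aldh1a3 led in the 6 month wild type group at 19.5, whereas oocytes held Aldh1a2.

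The remaining members overlapped between knockout and wild type granulosa cells. Crabp2, the carrier of retinoic acid to its receptors, averaged 113 ± 60.4, 95.6 ± 32.6 and 84.0 ± 14.2 CPM in knockout libraries at 4 weeks, 7 weeks and 6 months (SD, n = 7, 5 and 6). Wild type libraries had 103 ± 18.2, 90.4 ± 19.8 and 100.8 ± 23.3 CPM (n = 7, 5 and 12). Its log2 differences were 0.10 ± 0.28, 0.01 ± 0.28 and -0.15 ± 0.17 (SE). Rara, a nuclear receptor for retinoic acid, averaged 26.5, 24.1 and 18.5 CPM in knockout libraries and 25.3, 22.3 and 17.5 CPM in wild type libraries. Its log2 differences were 0.02 ± 0.30, 0.09 ± 0.49 and 0.19 ± 0.20. Stra6, the retinol uptake receptor, averaged under 3 CPM in every granulosa group and did not pass the filter there.

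Over the members that passed the filter, 2 of 5 at 4 weeks, 2 of 5 at 7 weeks and 3 of 7 at 6 months were past an adjusted p of 0.05, against 2.33%, 0.8% and 12.6% of all tested genes. The members were chosen on this contrast, so the counts carry no further reading. The median log2 difference of those members was 0.02, 0.01 and 0.19, beside -0.02, 0.01 and -0.02 over all genes. The 6 month count was 2 without knockout library 3, with no filter on low counts, without libraries under 1000000 counts, with the sample number as a block and in the joined model of all granulosa libraries, Aldh1a2 being the member lost in each. The block also left out wild type libraries 7 to 12.

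Summed marker lists also differed between the genotypes in granulosa libraries, by two-sided exact permutation tests adjusted over 24 tests. The luteal list averaged 6798, 9085 and 5341 CPM in wild type libraries of 4 weeks, 7 weeks and 6 months, above the granulosa list at 2903, 2696 and 2503 CPM. In knockout libraries it averaged 2139, 3708 and 5695 CPM, beside 4806, 3666 and 3320 CPM of the granulosa list. Whether luteal cells or granulosa cells themselves hold the luteal list was not tested. The 8 granulosa markers were higher in 4 week knockout libraries, with 2816 to 6146 CPM against 1738 to 3952 CPM in wild type. This missed the threshold (log2 0.725, unadjusted p = 0.0192, adjusted p = 0.0513). Their adjusted p was 0.381 at 7 weeks and 0.36 at 6 months. At 4 weeks knockout libraries were lower in the 6 luteal markers (1408 to 2898 CPM, against 2642 to 11130 CPM in wild type, adjusted p = 0.014), the 8 immune markers (204 to 548 CPM against 359 to 1862 CPM, adjusted p = 0.034) and the 5 erythroid markers (9.23 to 40.9 CPM against 26.1 to 890 CPM, adjusted p = 0.014). At 7 weeks the 9 surface epithelium markers were lower in knockout libraries (139 to 447 CPM against 567.8 to 1878 CPM, adjusted p = 0.0317). Lhx9 of that list had no row and counted as 0. Luteal markers were also lower in knockout libraries there (1910 to 5788 CPM against 4548 to 12410 CPM, adjusted p = 0.0476). At 6 months Cyp17a1, Zp1, Zp2, Zp3 and Figla had no row and counted as 0. The 10 theca and stroma markers were higher in knockout libraries there (1158 to 2092 CPM against 408 to 1568 CPM, adjusted p = 0.014). So were the 8 oocyte markers (14.0 to 35.7 CPM against 4.04 to 21.8 CPM, adjusted p = 0.0253). Erythroid markers were lower in knockout libraries (2.58 to 163 CPM against 30.1 to 876 CPM, adjusted p = 0.0207). Oocyte markers stood apart in some wild type granulosa libraries. At 4 weeks they summed to 8.08 to 19.2 CPM in knockout libraries, against 641 CPM in wild type library 6 and 6.12 to 26.3 CPM in the other wild type libraries (adjusted p = 0.239). At 7 weeks they summed to 11.8 to 57.4 CPM in knockout libraries, against 163, 230 and 209.5 CPM in wild type libraries 3 to 5 and 1.42 and 4.98 CPM in wild type libraries 1 and 2 (adjusted p = 0.494). Aldh1a2 and Rdh10 are high in oocytes. In wild type libraries 3 to 5 of 7 weeks Aldh1a2 was at 5.53, 10.3 and 2.71 CPM, beside 0 and 4.07 CPM in libraries 1 and 2, and Rdh10 was at 12.8, 9.72 and 12.0 CPM, beside 17.1 and 19.2 CPM. The part of these marker differences in the values of the members and the pathway genes was not tested.

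The wider retinoid pathway was described with a list of 51 other genes, of which 43 had a row. The list was drawn up with earlier results of these data known, so its counts beside the shares of all genes are a description. The listed genes were tested by edgeR's quasi-likelihood method, and p-values were adjusted over all genes after Benjamini and Hochberg. At 4 weeks 3 of 26 tested genes changed in knockout granulosa cells, 1 higher and 2 lower, and at 6 months 9 of 27, 6 higher and 3 lower, against 2.33% and 12.6% of all genes. In the joined model of all granulosa libraries 5 were called at 6 months, and with the sample number as a block 3. That block also left out wild type libraries 7 to 12. At 7 weeks edgeR called 0 of 26, with 9 at an unadjusted p under 0.05 and 4 called by DESeq2. The median log2 difference over the list was 0.06, -0.23 and -0.10 at the 3 ages, beside the medians over all genes given above.

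At 4 weeks Tgm2, a transglutaminase known to respond to retinoic acid in other tissues, averaged 8.85 ± 5.61 CPM in knockout libraries and 67.2 ± 40.4 CPM in wild type libraries (SD, n = 7 each). The groups did not overlap, and the log2 difference was -2.98 ± 0.44 (SE, adjusted p = 0.000381). Aldh1a3 fell to 4.58 ± 2.38 CPM in knockout libraries, against 18.5 ± 12.0 CPM in wild type libraries (log2 -2.08 ± 0.43, adjusted p = 0.00833), lower than the wild type median in 7 of 7 knockout libraries. Fabp5, which encodes a fatty acid binding protein that also carries retinoic acid, rose to 71.1 ± 13.4 CPM in knockout libraries, against 38.2 ± 11.8 CPM in wild type libraries (log2 0.83 ± 0.22, adjusted p = 0.0437).

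At 6 months the 6 pathway genes with the smallest p included 3 alcohol dehydrogenases, enzymes that can oxidise retinol. Adh7 rose to 224 ± 145 CPM in knockout libraries, against 60.7 ± 30.2 CPM in wild type libraries (SD, n = 6 and 12; log2 2.02 ± 0.36, adjusted p = 0.00209). Adh1 rose to 143 ± 74.7 CPM, against 37.0 ± 43.7 CPM (log2 2.08 ± 0.49, adjusted p = 0.0126), and Adh5 to 490.3 ± 31.2 CPM, against 361 ± 67.8 CPM (log2 0.56 ± 0.15, adjusted p = 0.0198). All 6 knockout libraries lay above the wild type median for these 3 genes. Dhrs4, a short-chain dehydrogenase/reductase active on retinoids, rose by 0.74 ± 0.18 on the log2 scale (adjusted p = 0.00959), and Fabp5 by 0.78 ± 0.19 (adjusted p = 0.0103). Rarg, another retinoic acid receptor, fell to 5.96 ± 2.03 CPM in knockout libraries, against 13.7 ± 4.17 CPM in wild type libraries (log2 -1.08 ± 0.28, adjusted p = 0.0152). Aldh1a3 and the corepressor gene Ncor1 were also lower and the dehydrogenase gene Rdh13 higher. In the joined model Adh5, Rarg, Aldh1a3, Ncor1 and Rdh13 were not called, while Adh7, Adh1, Dhrs4 and Fabp5 were.

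**Figure D3:**
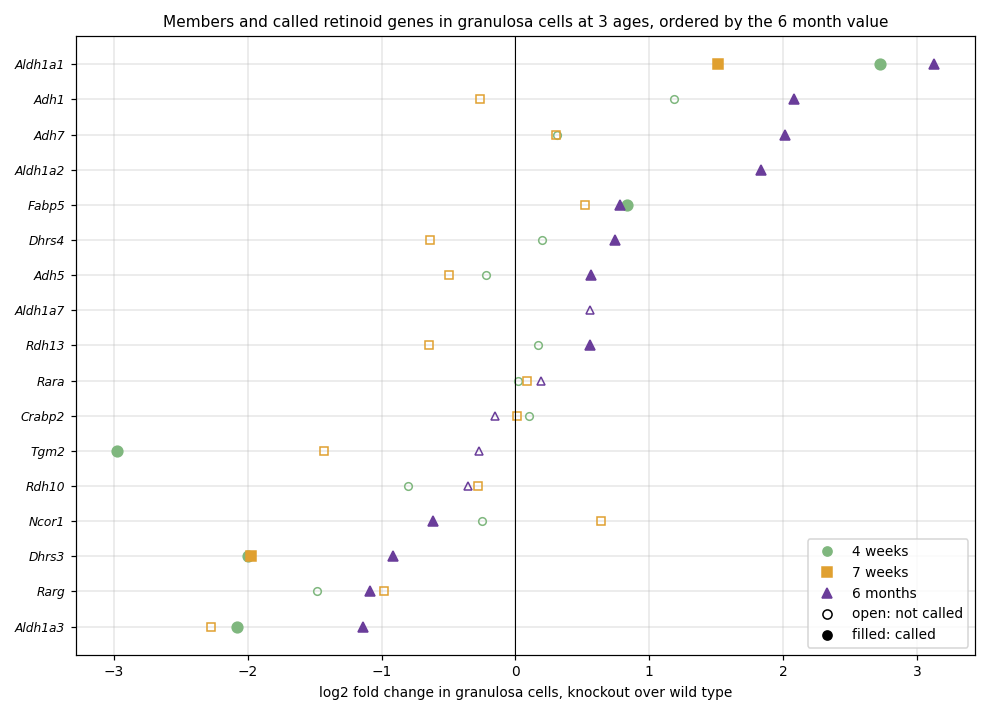
Log2 difference, knockout over wild type, of the members that passed the count filter in granulosa cells and of the pathway genes called there at 1 age or more, with their values at 4 weeks (circles), 7 weeks (squares) and 6 months (triangles), filled where the adjusted p was under 0.05. For members the filling is a description, since granulosa knockout values chose them. Aldh1a1 and Dhrs3, the genes that chose the set, lie at or near the ends with 3.13 and -0.92 at 6 months, and Tgm2 has -2.98 at 4 weeks and -0.27 at 6 months.

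The knockout effect on the pathway list was compared between ages in the model of all granulosa libraries. Between 6 months and 7 weeks it differed for 7 of 31 genes, against 10.4% of all genes. That count was 2 without wild type library 2 of 7 weeks, 3 without knockout library 3 of 7 weeks, and 5 to 8 without each other library of that age. Between 6 months and 4 weeks it differed for 1 gene, Tgm2 (log2 2.68 ± 0.52 SE, adjusted p = 0.00573), against 0.657% of all genes. Between 7 weeks and 4 weeks edgeR called 0 genes of the list, with 7 at an unadjusted p under 0.05 and 0 called by DESeq2, against 0.00699% of all genes. Of the members, as a description, Dhrs3 differed by 1.04 ± 0.40 between 6 months and 7 weeks and by 1.06 ± 0.36 between 6 months and 4 weeks. Aldh1a2 differed by 4.19 ± 0.99 between 6 months and 4 weeks, and by 3.38 without knockout library 3 of 6 months. Its 4 week knockout libraries had 0 to 1.65 CPM, near its detection limit.

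Changes with age within a genotype were not used to choose the set, although they share its libraries. Each age came as a table of its own, so age and table cannot be told apart. Aldh1a1 rose in knockout granulosa cells at 6 months to 147 ± 39.8 CPM, against 62.6 ± 24.6 CPM at 7 weeks and 66.9 ± 26.7 CPM at 4 weeks (SD, n = 6, 5 and 7). The log2 change was 1.51 ± 0.42 over 7 weeks (adjusted p = 0.0102) and 1.37 ± 0.37 over 4 weeks (adjusted p = 0.0102), with 6 of 6 libraries above the median of the earlier age in both. Aldh1a7 rose by 2.27 ± 0.82 over 7 weeks (adjusted p = 0.0421) and by 2.49 ± 0.72 over 4 weeks (adjusted p = 0.0171), also in 6 of 6 libraries. Its call over 7 weeks was lost without libraries under 1000000 counts (log2 2.09, adjusted p = 0.0851), and without any 1 of knockout libraries 1, 2, 3 and 5 at 7 weeks (adjusted p 0.068 to 0.118) or library 3 at 6 months (adjusted p = 0.0794). Aldh1a2 rose by 3.86 ± 0.80 over 4 weeks (adjusted p = 0.000934), and by 3.06 (adjusted p = 0.0137) without library 3.

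In all, 2 of 8 members changed in knockout granulosa cells between 7 weeks and 6 months and 3 of 8 between 4 weeks and 6 months, against 22% and 13.8% of all genes. The median log2 change of the members was 0.95 and 1.00, beside -0.05 and -0.06 over all genes. Between 4 and 7 weeks edgeR called 0 of 8, with 1 at an unadjusted p under 0.05 and 0 called by DESeq2, against 0.0419% of all genes. Dhrs3 moved upward by 0.75 ± 0.31 between 7 weeks and 6 months, which missed the threshold (adjusted p = 0.0747).

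In wild type granulosa cells 1 of 8 members, Aldh1a7, changed between 4 weeks and 6 months (log2 2.10 ± 0.67 SE, adjusted p = 0.0406, higher in 9 of 12 libraries), against 8% of all genes. Its adjusted p was 0.0729 when those 2 groups alone were fitted. Aldh1a1 had a log2 change of 1.00 ± 0.35 there (adjusted p = 0.0695), with 18.7 ± 9.86 CPM at 6 months and 9.72 ± 4.89 CPM at 4 weeks. Between 4 and 7 weeks edgeR called 0 of 8 members and 0% of all genes, with 2 members at an unadjusted p under 0.05 and 0 called by DESeq2. Between 7 weeks and 6 months it called 0 of 8, with 1 at an unadjusted p under 0.05 and 0 called by DESeq2, against 1.36% of all genes.

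Several pathway genes changed with age in both genotypes. Aldh1a3 at 6 months was above its 4 week level by a log2 change of 3.22 ± 0.46 in knockout granulosa cells (adjusted p = 5.42e-06) and 2.33 ± 0.40 in wild type granulosa cells (adjusted p = 0.00023). Fabp5 rose by 1.32 ± 0.22 in knockout (adjusted p = 5.4e-05) and 1.38 ± 0.20 in wild type (adjusted p = 2.15e-05), and Adh7 by 3.24 ± 0.46 in knockout (adjusted p = 4.84e-06) and 1.54 ± 0.40 in wild type (adjusted p = 0.0128). Tgm2 rose by 3.50 ± 0.42 in knockout cells (adjusted p = 2.96e-07), to 85.9 ± 33.2 CPM at 6 months, against 8.85 ± 5.61 CPM at 4 weeks. In all, 9 of 31 genes of the list changed in knockout and 6 of 31 in wild type granulosa cells over that span, against 13.8% and 8% of all genes. Retsat, which encodes retinol saturase, fell by 1.16 on the log2 scale in wild type cells (adjusted p = 0.0105).

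The knockout contrast in oocytes was not part of the rule that chose the set, and no member passed the test. At 4 weeks, 7 weeks and 6 months edgeR called 0 of 6 members, against 0.00924%, 0.154% and 0.00818% of all genes, with 1, 0 and 0 members at an unadjusted p under 0.05 and 0 called by DESeq2 at each age. The lowest adjusted p was 0.998, 0.419 and 0.999. The median log2 difference of the members was -0.20, -0.24 and 0.19, beside -0.02, -0.01 and -0.05 over all genes. For the pathway list edgeR called 0 of 16, 0 of 17 and 0 of 20, with 2, 3 and 1 at an unadjusted p under 0.05 and 0, 1 and 0 called by DESeq2.

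Crabp2 had the smallest p, at 4 weeks, with 75.0 to 134 CPM, median 117, in knockout oocytes, against 78.2 to 243 CPM, median 146, in wild type oocytes. Each of the 7 knockout values was below the wild type median while the ranges overlapped, and the log2 difference was -0.56 ± 0.21 (SE, unadjusted p = 0.0135, adjusted p = 0.998). Aldh1a2 had 50.2 to 122 CPM, median 86.5, in knockout oocytes at 4 weeks, against 65.8 to 175 CPM, median 102, in wild type oocytes. At 7 weeks it had 42.4 to 117 CPM, median 85.7, in 12 knockout libraries, against 13.2, 86.9, 101, 36.5 and 111 CPM in wild type libraries. At 6 months it had 132, 133, 143 and 134 CPM in knockout oocytes, against 13.6 to 195 CPM, median 118, in wild type oocytes. The knockout libraries lay inside the wild type range at 6 months, and the log2 differences were -0.31 ± 0.21, 0.41 ± 0.34 and 0.29 ± 0.38.

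Dhrs3, lower in knockout granulosa cells, had 8.66 ± 3.55, 5.18 ± 2.08 and 6.21 ± 1.70 CPM in knockout oocytes at the 3 ages and 9.55 ± 4.90, 8.12 ± 5.71 and 5.90 ± 4.78 CPM in wild type oocytes (SD, n = 7, 12 and 4 against 12, 5 and 11). Its log2 differences were -0.15 ± 0.32, -0.55 ± 0.49 and 0.09 ± 0.69. Rdh10 differed by 0.00 ± 0.21, -0.42 ± 0.27 and -0.37 ± 0.25, and Rara by -0.26 ± 0.24, -0.30 ± 0.34 and 0.44 ± 0.37. Stra6 averaged 1.83, 3.60 and 3.24 CPM in knockout oocytes and 1.89, 1.75 and 2.14 CPM in wild type oocytes. Its log2 differences were -0.10 ± 0.72, 1.15 ± 0.75 and 0.59 ± 0.84. Aldh1a1 had 3 counts over 4 knockout oocyte libraries at 6 months, against 13 counts over 11 wild type libraries, too few to be tested.

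**Figure D4:**
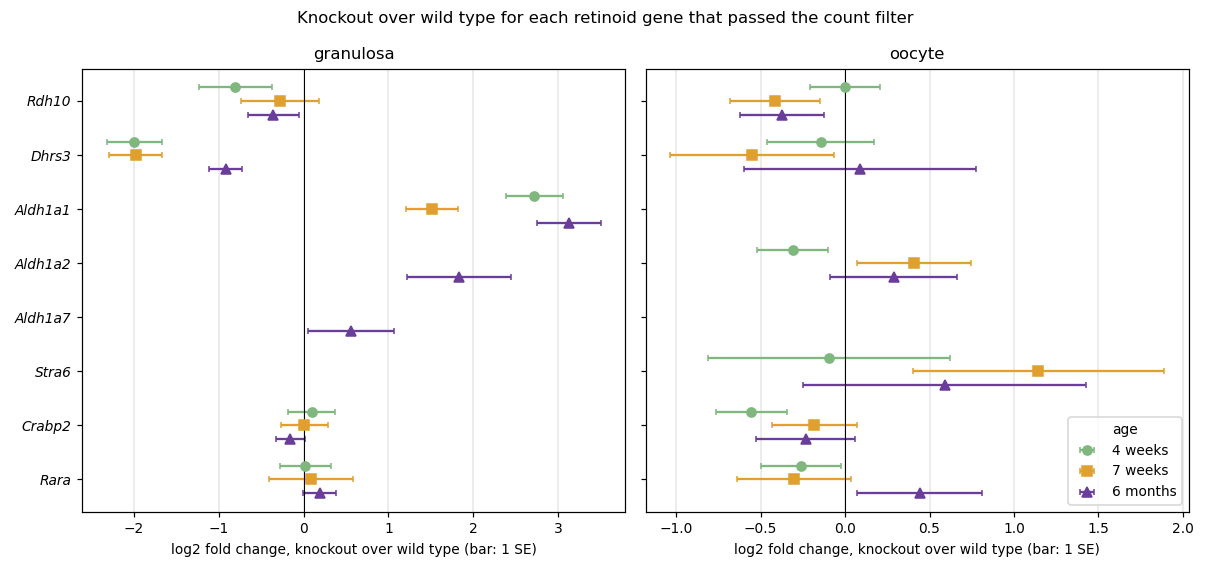
Log2 difference, knockout over wild type, of each retinoid gene that passed the count filter, in granulosa cells (left) and oocytes (right) at 4 weeks (circles), 7 weeks (squares) and 6 months (triangles), bars 1 SE. In granulosa cells Aldh1a1 lies between 1.51 and 3.13 and Dhrs3 between -1.996 and -0.92, and in oocytes the values spread from -0.56 to 1.15 with wide errors.

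In 7 week oocytes knockout and wild type libraries of the same sample number were taken as pairs, although no label states a pairing. Such a fit keeps only libraries whose number occurs in both genotypes, here numbers 1, 2, 3 and 5. With the number as a block the log2 differences there became 0.03 ± 0.57 for Dhrs3, -0.49 ± 0.20 for Rdh10, 0.16 for Crabp2, -0.61 for Rara, 0.21 for Aldh1a2 and 1.37 for Stra6. Again no member was called, although Rdh10 had an unadjusted p of 0.0216 (adjusted p = 0.26), the 1 member of 6 under 0.05 with the block. The knockout effect on members did not differ between any 2 ages in oocytes past the threshold, with 0 of 6 called by edgeR, 0 at an unadjusted p under 0.05 and 0 called by DESeq2 in each comparison, as for 0% of all genes.

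In wild type oocytes 3 of 6 members changed between 7 weeks and 6 months, against 25.7% of all genes. Aldh1a2 rose by 0.94 ± 0.35 (SE, adjusted p = 0.0393), Rara fell by 0.89 ± 0.32 (adjusted p = 0.0315) and Rdh10 fell by 0.63 ± 0.24 (adjusted p = 0.0473). All 3 calls were lost without wild type library 1 at 7 weeks, 1 of the shallowest oocyte libraries, with 13.2 CPM of Aldh1a2, 57.1 of Rara, 183 of Rdh10 and 0 of Dhrs3. Without it the log2 changes were 0.65 (adjusted p = 0.197), -0.45 (adjusted p = 0.376) and -0.52 (adjusted p = 0.162). The Aldh1a2 call was also lost without library 2 or 4 of that group, and the Rdh10 call without library 3 or 4. Without all 4 oocyte libraries under 2500000 counts, library 1 among them, Aldh1a2 was still called, while Rara (adjusted p = 0.422) and Rdh10 (adjusted p = 0.0545) were not. Between 4 weeks and 6 months 1 of 6 members changed, Crabp2, which rose to 228 ± 73.4 CPM at 6 months, against 155 ± 47.8 CPM at 4 weeks (SD, n = 11 and 12; log2 0.62 ± 0.21 SE, adjusted p = 0.0302, 10 of 11 libraries), beside 15.4% of all genes. Between 4 and 7 weeks edgeR called 0 of 6, with 2 at an unadjusted p under 0.05 and 0 called by DESeq2, beside 0.824% of all genes.

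In knockout oocytes edgeR called 0 of 6 members between any 2 ages, with 0 at an unadjusted p under 0.05 between 4 and 7 weeks, 2 between 7 weeks and 6 months and 1 between 4 weeks and 6 months, and 0, 0 and 1 called by DESeq2. The shares of all genes called were 0.0223%, 5.81% and 2.27%. Crabp2 had a log2 change of 0.94 ± 0.30 between 4 weeks and 6 months (adjusted p = 0.0817), and in a fit of those 2 groups alone its adjusted p was 0.0342. Aldh1a2 at 6 months lay above every 7 week knockout library, with a log2 change of 0.81 ± 0.34 (adjusted p = 0.136, and 0.0179 in a fit of those 2 groups alone).

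Wild type granulosa cells were set against wild type oocytes of the same age, a contrast in which cell type and table cannot be told apart and in which 81.1%, 74.4% and 83.6% of all genes were called at the 3 ages. The median log2 difference over all genes was 0.24, 0.25 and 0.25, and the scaling of the fit placed granulosa cells lower relative to oocytes than library totals do. Of 6 members tested, 4, 4 and 5 were called. These shares are near or below those of all genes. Dhrs3 was higher in granulosa cells by 3.00 ± 0.36, 3.28 ± 0.53 and 3.21 ± 0.35 (SE, adjusted p = 3.6e-12, 5.3e-08 and 7.9e-14), without overlap at any age. Aldh1a2 was lower in granulosa cells, by log2 values of -5.70 ± 0.52, -4.06 ± 0.59 and -6.22 ± 0.42 (adjusted p = 2.32e-17, 2.47e-09 and 1.33e-24). Rdh10 was also lower there, by -2.88 ± 0.31, -3.48 ± 0.39 and -2.78 ± 0.25 (adjusted p = 1.8e-14, 3.73e-13 and 2.88e-18).

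Aldh1a1 was higher in granulosa cells. At 6 months it had 18.7 ± 9.86 CPM in wild type granulosa cells and 0 to 0.894 CPM in wild type oocytes, and in a fit of those 2 groups the log2 difference was 5.71 ± 0.58 (adjusted p = 3.44e-10). Crabp2 was lower in granulosa cells, by -1.14 ± 0.25, -1.35 ± 0.33 and -1.68 ± 0.22 (adjusted p = 3.13e-05, 0.000144 and 2.02e-11), with overlapping ranges. Stra6 was called at 6 months alone (log2 -2.05 ± 0.72, adjusted p = 0.00685). Rara was not called at any age, with 0.06 ± 0.29, -0.49 ± 0.39 and 0.06 ± 0.26.

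Of the pathway list 18, 15 and 20 of 21 tested genes were called, shares near the 81.1%, 74.4% and 83.6% of all genes. Rdh12, a retinal reductase known from photoreceptors, averaged 0.948 CPM in wild type granulosa cells and 153 CPM in wild type oocytes at 4 weeks (log2 -7.89 ± 0.55, adjusted p = 4.03e-24). Meis2, a homeobox gene that responds to retinoic acid in limb buds, averaged 27.4 CPM in granulosa cells and 1222 CPM in oocytes (log2 -6.06 ± 0.36, adjusted p = 2.79e-28). The coactivator gene Ncoa3 was also lower in granulosa cells (log2 -3.30 ± 0.18, adjusted p = 6.45e-31). On the other side, Dhrs4 averaged 40.6 CPM in granulosa cells and 0.659 CPM in oocytes at 4 weeks (log2 5.25 ± 0.52, adjusted p = 8.57e-16). Nrip1, a corepressor of nuclear receptors, was higher in granulosa cells too (log2 2.00 ± 0.20, adjusted p = 1.74e-15).

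The genes whose pattern over the 6 granulosa group means was most like that of Aldh1a1, among 10161 genes, were Fhl2, Guk1, Fndc4, Slc11a2 and Pex11a, with Pearson r of 0.9901, 0.9777, 0.9701, 0.9699 and 0.9692. For Dhrs3 they were Psmd7, Slc11a1, Fam83g, Lhcgr and Esr2, with r of 0.9958, 0.9934, 0.9864, 0.9819 and 0.9768. These values rest on 6 points that share their tables and are a description. Esr2 was at 0 in the 3 knockout groups, so its place in the list follows from the genotype labels.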

How the data were processed

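The deposited tables hold estimated counts (expected counts) per gene for each library, which the authors did not normalise. Of these values 15.7% to 18.6% per table are not whole, and they were rounded before testing. The submitters' processing notes name STAR, Partek, DESeq2 and the mm10 genome with no versions; the gene annotation and the treatment of reads with several matches are not given in the sources used here. The lowest row total in a table was 3.44 to 6.41 counts. For a gene with no row in any table, such as Cyp26b1, few or no counts and absence from the annotation cannot be told apart. Levels are CPM over the library total, not scaled by TMM.

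Each comparison used edgeR 4.0.16 in R 4.3.3 (filterByExpr, TMM, robust quasi-likelihood F test, Benjamini-Hochberg adjustment over all tested genes), with a call at an adjusted p under 0.05. Genotypes were compared within each table, ages in 1 model per cell type, and cell types in 1 model of the 12 groups. DESeq2 1.42.0, other scaling, no count filter, left-out libraries, blocks by sample number and narrower or joined fits were alternatives. The scripts were tested on simulated data. Members and lists were chosen with earlier results of these data known. Beside the members, the text names the pathway genes called in a comparison, up to 6 by smallest p (1 of them is not reported here), those above 20 CPM where levels are described, and the 5 genes most like Aldh1a1 and Dhrs3 in log2(CPM + 1), of those averaging at least 5 CPM.

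Sample numbers were run as a block in every table as an alternative. They were taken as pairs in 7 week oocytes alone, where residuals of same-numbered libraries correlated at 0.543, 0.118, 0.154 and 0.243. The 0.543 belongs to number 1, the shallowest library of each genotype there. In 7 week granulosa cells, not taken as paired, the correlations were 0.256, 0.141, 0.234, 0.434 and -0.197. In 6 month granulosa cells, also not taken as paired, they were 0.395, -0.174, -0.0921, -0.227, -0.106 and 0.0744. The block keeps only numbers found in both genotypes, so it left out wild type libraries 7 to 12 there. The labels state no pairing at any age. In the 7 week oocyte knockout group 1 library had no number of its own and may not be a separate sample; it was kept there. miRNA data were not analysed here.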

Additional observations from a re-analysis of the deposited data

Results flagged for a closer look

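The values of 1 member in 1 group of 4 to 10 libraries made up a set, and 59 sets were tested. In 5 of them 1 library lay far from the others by Dixon's test. Chance does so in about 1 of 20 sets of normally distributed values. These sets hold CPM, some of few counts, and share libraries, so that rate may not hold here. In knockout granulosa cells of 6 months, library 3 had 20.5 CPM of Aldh1a2, against 0 to 6.95 CPM in the others. In knockout granulosa cells of 4 weeks, library 2 had 20.1 CPM of Rdh10 (others 2.49 to 9.30), library 1 had 240.4 CPM of Crabp2 (others 51.6 to 112) and library 3 had 2.20 CPM of Stra6 (others 0 to 0.711). In wild type oocytes of 7 weeks, library 1 had 57.1 CPM of Rara (others 15.2 to 22.6). No cause of these values was tested.

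The knockout effect in granulosa cells differed between 6 months and 7 weeks for 7 pathway genes by edgeR's interaction test, given as the log2 difference of the effects. Without wild type library 2 of 7 weeks 2 of the list were called, and without knockout library 3 of 7 weeks 3. It was higher at 6 months for Cyp26a1 (6.28 ± 1.57 SE, adjusted p = 0.0164), Adh1 (2.32, adjusted p = 0.0426), Dhrs4 (1.35, adjusted p = 0.0207), Rdh13 (1.19, adjusted p = 0.0164) and Adh5 (1.04, adjusted p = 0.029). It was lower at 6 months for Nrip1 (-1.47, adjusted p = 0.0129) and Ncor1 (-1.25, adjusted p = 0.0223). Between 6 months and 4 weeks it differed for Tgm2 (2.68, adjusted p = 0.00573). The Cyp26a1 value rests on levels of a few CPM or less in 7 week and in wild type libraries, given below.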

How the results depend on the processing

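No called value of a gene turned its direction under the alternatives run for it: 707 kept their call and 118 lost it. Pathway genes called between granulosa cells and oocytes were not in this tally. Members called in granulosa knockout over wild type and its age differences were in it. That contrast chose the set, so their share of the tally is a description. Single libraries were left out only in comparisons with groups of 4 or 5 libraries, besides knockout library 3 of 6 month granulosa cells. Of 1517 values of uncalled members, 85 changed sign, none of them called, and 15 became called. Of 84 levels, 1 moved by over 1 SD with TMM scaling, Aldh1a2 in 6 month knockout oocytes, to 146.7 CPM. The counts of members called moved as follows. In 7 week granulosa cells, knockout over wild type, 2 became 1 without libraries under 1000000 counts, 1 in the joined model, and 1 to 2 without single libraries. Aldh1a1, whose granulosa values chose the set, was the member that dropped out, with a log2 difference of 1.31 to 1.58 without any 1 of knockout libraries 1, 2 and 5 or wild type libraries 1 to 5. For knockout granulosa cells, 6 months over 7 weeks, 2 became 1 without libraries under 1000000 counts and 1 to 3 without single libraries. The granulosa knockout effect, 6 months minus 7 weeks, had 0 members, against 1 with DESeq2's size factors, 3 with DESeq2 (2317 of all genes, against 1492) and 0 to 1 without single libraries. For 6 months minus 4 weeks it had 1, Aldh1a2, and 0 without knockout library 3. Granulosa knockout values chose the members, so their counts in knockout over wild type and in these age differences are a description. In wild type granulosa cells, 6 months over 4 weeks, 1 became 2 with DESeq2 and 0 in a fit of the 2 groups. In wild type oocytes, 6 months over 7 weeks, 3 became 1 without oocyte libraries under 2500000 counts, 1 in a fit of the 2 groups and 0 to 3 without single libraries. In knockout oocytes, 0 became 1 for 6 months over 7 weeks without those libraries and in a fit of the 2 groups, and 1 for 6 months over 4 weeks under both and with DESeq2. Over all genes, 6 months over 7 weeks gave 1215 without those libraries and 1737 in a fit of the 2 groups, against 782. For 6 months over 4 weeks, all genes gave 744 without those libraries and 672 with DESeq2, against 306. The settings without oocyte libraries under 2500000 counts and without knockout library 3 of 6 month granulosa cells were chosen after seeing the data.

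For the pathway list, knockout over wild type in granulosa cells gave 5 with DESeq2 at 4 weeks, against 3, and at 7 weeks 4 with DESeq2, 1 in the joined model and 0 to 1 without single libraries, against 0. At 6 months it gave 5 in the joined model, against 9. In 7 week oocytes it gave 1 with DESeq2 and 0 to 1 without single libraries, against 0. For knockout granulosa cells, 7 weeks over 4 weeks, 0 became 1 with DESeq2, and 6 months over 7 weeks 12 became 9 to 11 without single libraries; in wild type, 6 months over 7 weeks, 3 became 0 to 3. The granulosa knockout effect, 6 months minus 7 weeks, gave 2 to 8 without single libraries, against 7, and over all genes 290 to 2298, against 1492. In wild type oocytes, 7 weeks over 4 weeks, 1 became 2 with DESeq2's size factors, 0 with no filter, 6 with DESeq2, 2 without oocyte libraries under 2500000 counts, 0 in a fit of the 2 groups and 0 to 4 without single libraries; 6 months over 4 weeks, 2 became 1 in a fit of the 2 groups. In knockout oocytes, 6 months over 7 weeks, 1 became 4 with DESeq2, 3 without oocyte libraries under 2500000 counts, 6 in a fit of the 2 groups and 0 to 1 without single libraries; 6 months over 4 weeks, 0 became 1 without those libraries and 1 in a fit of the 2 groups. Over all genes, wild type oocytes, 7 weeks over 4 weeks, gave 15 with no filter, 992 with DESeq2 and 0 in a fit of the 2 groups, against 111. There, leaving out oocyte libraries under 2500000 counts gave 355, and leaving out single libraries 0 to 520. Knockout oocytes, 6 months over 7 weeks, gave 1508 of all genes with DESeq2 and 231 to 695 without single libraries, against 782. The cause of these shifts was not tested.

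The replicate block rests on sample numbers for which no label states a pairing. With it the pathway count was 3 in 6 month and 1 in 7 week granulosa cells. In 6 month granulosa cells the block also left out wild type libraries 7 to 12. In 7 week oocytes the block changed no member's call. Over all genes, knockout over wild type in granulosa cells gave 546 with DESeq2 and 504 in the joined model at 4 weeks, against 283, and 559, 285 and, without libraries under 1000000 counts, 42 at 7 weeks, against 96 (36 to 209 without single libraries). At 6 months it gave 645 with the block, 803 in the joined model and 998 without knockout library 3, against 1580. In 7 week oocytes it gave 30 with no filter, 248 with DESeq2, 38 with the block and 3 in the joined model, against 18. Granulosa libraries of under 1000000 counts limit members below about 3 CPM, Stra6 and Aldh1a7 above all.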

Other observations

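Cyp26a1, an enzyme that breaks retinoic acid down, averaged 1.57, 0.851 and 11.2 CPM in knockout granulosa cells at 4 weeks, 7 weeks and 6 months, and 0.938, 2.15 and 0.354 CPM in wild type granulosa cells. It rose in knockout cells between 4 weeks and 6 months (log2 3.02 ± 0.98 SE, edgeR adjusted p = 0.0345, higher in 5 of 6 libraries) and between 7 weeks and 6 months (log2 3.78 ± 1.23, adjusted p = 0.0249). Its 6 month knockout libraries varied with an SD of 11.3 CPM.

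In knockout granulosa cells the corepressor genes Nrip1 and Ncor1 and the receptor gene Rxra were lower at 6 months than at 7 weeks. Nrip1 averaged 67.8 ± 15.3 CPM at 6 months and 199.7 ± 46.4 CPM at 7 weeks (SD, n = 6 and 5; log2 -1.30 ± 0.26 SE, adjusted p = 0.00101), and Ncor1 106 ± 22.9 CPM at 6 months and 283 ± 64.9 CPM at 7 weeks (log2 -1.16 ± 0.26, adjusted p = 0.00239), both without overlap. Rxra averaged 5.62 ± 2.13 CPM at 6 months and 16.2 ± 6.06 CPM at 7 weeks (log2 -1.26 ± 0.35, adjusted p = 0.0105). In wild type oocytes Ncor1 averaged 70.3 ± 31.9 CPM at 6 months and 183 ± 43.9 CPM at 7 weeks (SD, n = 11 and 5; log2 -1.19 ± 0.21, adjusted p = 3.98e-05), and Rdh12 rose to 180.5 ± 54.2 CPM at 6 months, against 89.6 ± 28.7 CPM at 7 weeks (log2 1.27 ± 0.31, adjusted p = 0.00231).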
